A study of Homo sapiens with 6 samples.

Results

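The zinc finger genes of chromosome 19 whose symbol is ZNF followed by a number were examined in A549, a human lung adenocarcinoma cell line. Of 240 such protein-coding genes in GENCODE release 29 (build hg38), 176 reached a sum of 60 or more raw counts over the 6 libraries and were taken as members, among 58721 genes in the table. The members were chosen by this sum of raw counts, whatever the group, and the list was drawn up with earlier results of these data known. Just inside the minimum were ZNF83 with 61 counts and ZNF600 with 79, and just outside it ZNF564 and ZNF816 with 58 each. Of the 64 genes below the minimum, 11 had no count in any library. Of the 176 members, 175 passed the filter on low counts of the test, and ZNF83 did not.

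The study compared 3 libraries labelled KAT8 WT OE with 3 labelled KAT8 R98W OE, where OE is read as overexpression and R98W is an amino acid substitution in the Tudor-knot domain of KAT8 (also called MOF), a lysine acetyltransferase of histone H4. All 6 libraries came from the same line grown in the same medium, and polyadenylated RNA was sequenced. The labels give no vector, time or clone, nor whether the chromosomal KAT8 gene was left in place, and no library of the unmodified line was used here. Nothing says that the replicates come from separate cultures, and p-values here cover no more than the variation among these libraries, possibly technical. Library totals ran from 90007121 to 110152936 counts. KAT8 went against the label in 1 library: WT replicate 1 held 12.2 CPM (the count scaled to the library total), against 184 and 195 CPM in the other WT libraries and 166 to 236 CPM in R98W (fitted log2 fold change 0.61, SE 0.48, edgeR adjusted p = 0.362). Without that library the KAT8 value was 0.0627 (adjusted p = 0.687), and it was called higher in 2 other fits, with the replicate number as a block (1.22, adjusted p = 0.000788) and with no filter on low counts (0.61, adjusted p = 6.72e-16). The main results are therefore also given with that library left out. The epithelial markers of the line were present (6 of 6 over 1 CPM, summed to 8587 to 8776 CPM in WT and 7979 to 8603 CPM in R98W), and CDKN2A, which A549 has lost, was at 0 in all libraries. Endothelial markers summed to under 1 CPM in every library (0.392 to 0.779 CPM in WT and 0.214 to 0.362 CPM in R98W), fibroblast markers to 10.5 to 14.6 CPM in WT and 11.6 to 13.1 CPM in R98W, and leukocyte markers to 7.50 to 8.41 and 6.22 to 8.79 CPM, with 1 of the 5 leukocyte genes (CD3E) at 0. In the fibroblast and leukocyte lists 4 of 5 genes were under 1 CPM, the exceptions being COL1A1 and CD14.

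ZNF genes of this kind mostly encode proteins with a tandem array of C2H2 zinc fingers, each finger reading a few bases of DNA, and many carry a KRAB domain at the other end. The KRAB domain recruits TRIM28 (KAP1), which brings the H3K9 methyltransferase SETDB1, HP1 proteins and histone deacetylases, and the best-known targets are transposable elements. The human family expanded by tandem duplication, which left most of it in clusters on chromosome 19. The clusters were marked off from annotation alone, at every distance over 1 Mb between neighbouring ZNF genes. This gave 8 clusters with at least 5 members, numbered here from the tip of the short arm: cluster 1 from 7069444 to 9793180, cluster 2 from 11483427 to 12640098, cluster 3 from 19668796 to 24129961, all on the short arm, and on the long arm cluster 4 from 34677639 to 34964049, cluster 5 from 36182060 to 37817300, cluster 6 from 43525497 to 45076588, cluster 7 from 51571298 to 53580269 and cluster 8 from 55476332 to 58481230. The remaining 11 members lay in smaller groups or alone.

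The start-site windows of 6 members are shown because 3 of them lie in cluster 6, where a word was repeated between genes, and the others lead the falls or rises elsewhere. RefSeq start-site windows (GRCh38.p14, 250 bases before to 50 after the start, written 5′ to 3′ on the gene's strand) were matched by symbol for 156 of the 176 members, and the RefSeq start can differ from the GENCODE one. Capitals mark the words searched for. The ETS factor site was searched as CCGGAAG. The site of SP and KLF factors was searched as GGGCGG. For NRF1 the letters were GCGCATGCG, for YY1 they were AAGATGGCG, and for Kaiso they were TCTCGCGA. Part of the binding site of the protein ZNF143 was searched as ACTACAATT. The TATA box was searched as TATAAA. The last word, TTCTGGGAA, was chosen after the windows were read. All were searched on both strands, and none of them contains another.
ZNF112, chr19:44356655-44356954, minus strand: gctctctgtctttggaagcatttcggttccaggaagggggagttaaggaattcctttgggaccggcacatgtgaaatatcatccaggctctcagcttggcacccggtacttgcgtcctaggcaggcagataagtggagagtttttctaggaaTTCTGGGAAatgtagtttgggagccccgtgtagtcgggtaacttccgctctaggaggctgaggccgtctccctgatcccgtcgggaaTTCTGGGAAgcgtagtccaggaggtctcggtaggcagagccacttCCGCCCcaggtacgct
ZNF230, chr19:44002707-44003006, plus strand: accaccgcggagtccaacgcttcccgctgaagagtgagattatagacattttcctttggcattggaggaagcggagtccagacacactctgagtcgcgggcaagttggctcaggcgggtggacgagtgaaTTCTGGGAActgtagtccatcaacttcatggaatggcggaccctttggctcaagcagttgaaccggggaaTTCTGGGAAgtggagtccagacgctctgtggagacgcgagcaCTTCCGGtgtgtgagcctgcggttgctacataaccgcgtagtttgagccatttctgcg
ZNF226, chr19:44164850-44165149, plus strand: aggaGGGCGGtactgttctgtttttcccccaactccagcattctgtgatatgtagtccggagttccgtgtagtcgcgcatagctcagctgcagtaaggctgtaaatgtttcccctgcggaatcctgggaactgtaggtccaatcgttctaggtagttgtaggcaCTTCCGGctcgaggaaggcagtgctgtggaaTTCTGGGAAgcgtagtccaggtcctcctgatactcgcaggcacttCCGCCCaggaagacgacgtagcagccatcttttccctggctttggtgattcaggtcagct
ZNF175, chr19:51571033-51571332, plus strand: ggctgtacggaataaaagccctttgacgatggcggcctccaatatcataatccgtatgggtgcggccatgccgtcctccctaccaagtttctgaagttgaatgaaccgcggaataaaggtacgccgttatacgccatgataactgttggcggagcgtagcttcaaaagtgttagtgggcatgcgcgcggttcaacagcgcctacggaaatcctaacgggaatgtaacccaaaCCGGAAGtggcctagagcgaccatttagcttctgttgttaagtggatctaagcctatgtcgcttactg
ZNF599, chr19:34773166-34773465, minus strand: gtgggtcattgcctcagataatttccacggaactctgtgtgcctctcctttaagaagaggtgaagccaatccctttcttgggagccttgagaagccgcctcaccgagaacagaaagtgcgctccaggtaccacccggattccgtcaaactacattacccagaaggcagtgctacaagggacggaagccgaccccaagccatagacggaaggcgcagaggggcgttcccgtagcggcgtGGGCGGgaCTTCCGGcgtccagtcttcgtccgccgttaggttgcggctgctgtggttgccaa
ZNF274, chr19:58182811-58183110, plus strand: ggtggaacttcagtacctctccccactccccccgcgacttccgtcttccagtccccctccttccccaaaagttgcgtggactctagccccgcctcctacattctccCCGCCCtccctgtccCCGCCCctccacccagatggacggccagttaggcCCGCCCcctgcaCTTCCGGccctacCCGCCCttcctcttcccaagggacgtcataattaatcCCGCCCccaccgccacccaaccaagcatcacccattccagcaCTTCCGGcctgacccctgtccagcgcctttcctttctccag

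The ETS word was common in these windows. It stood in 69 of the 155 tested members with a window (44.5%), against 17.8% of 11252 tested protein-coding genes and 10.7% of all 27305 windows. ZNF175 and ZNF599 show it once each, ZNF274 carries it 2 times in reverse. By cluster it was found in 31 of 49 windows in cluster 8, 11 of 19 in cluster 7 and 9 of 12 in cluster 3, but in 1 of 11 in cluster 2 and 4 of 19 in cluster 5. The word TTCTGGGAA was found in 20 member windows (12.9%), against 1.14% of tested protein-coding genes and 1.09% of all windows. Of these 20, 13 were among the 20 windows of cluster 6, as in ZNF112, ZNF230 and ZNF226. The SP or KLF word stood in 61.3% of member windows and 68.3% of those of tested protein-coding genes, and TATAAA in 1.94% and 6.06%. NRF1, YY1 and Kaiso words were each in under 5% of member windows (3.23%, 4.52% and 1.94%), and the ZNF143 word was in 1.94%, against 0.578% of tested protein-coding genes. A match is a description of letters only, and only exact matches were counted. In ZNF112 and ZNF230 the first TTCTGGGAA is followed by atgtagt and ctgtagt. Read on the other strand, these letters begin with ACTACA, as the ZNF143 word does. The share given for the ZNF143 word leaves out such near matches, and whether both words mark the same site was not tested.

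**Figure D1:**
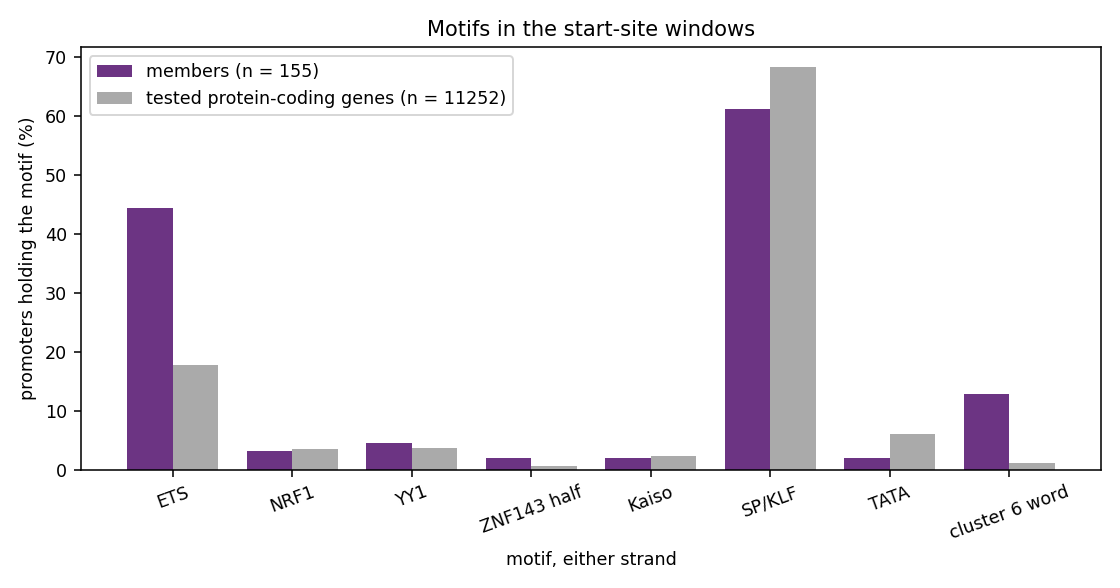
Share of start-site windows (%) that hold each word on either strand, in the 155 tested members with a RefSeq window and in 11252 tested protein-coding genes, with 1 bar per set. The ETS word reaches 44.5% in the members against 17.8%, and the word repeated in cluster 6 reaches 12.9% against 1.14%.

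The members were mostly at lower levels in R98W than in WT. By edgeR's quasi-likelihood test with Benjamini-Hochberg adjustment over all 20713 tested genes, 76 of 175 tested members were lower and 9 were higher at an adjusted p under 0.05. Over all tested genes 18.5% were lower and 16.2% higher (34.8% called), so the members' 43.4% lower stood above the background and their 5.14% higher below it. The median log2 fold change of R98W over WT (the log2 R98W/WT ratio below) was, for the members, -0.295, against -0.00465 over all tested genes, and 135 of the 175 had a negative value. WT and R98W libraries did not overlap in 88 members that were lower in R98W and in 13 that were higher, where the background was 24.2% and 21.3% of tested genes. Of the called members, 24 were lower and 1 was higher by at least 2-fold, against a background of 4.85% and 0.748%. Without the library labelled WT replicate 1, 76 members were lower (background 18.4%) and 7 higher (background 15.2%), and 70 of the lower members were the same genes. The median member level was 4.44, 4.76 and 5.05 CPM in WT replicates 1 to 3 and 3.81, 3.56 and 3.60 CPM in R98W replicates 1 to 3, so the groups did not overlap. Within WT, replicate 1 held the lowest value in 83 of the 175 members, replicate 2 in 53 and replicate 3 in 39, and the part of its low KAT8 level in this was not tested. In bulk RNA, fewer cells that express a gene and less RNA per cell cannot be told apart.

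**Figure D2:**
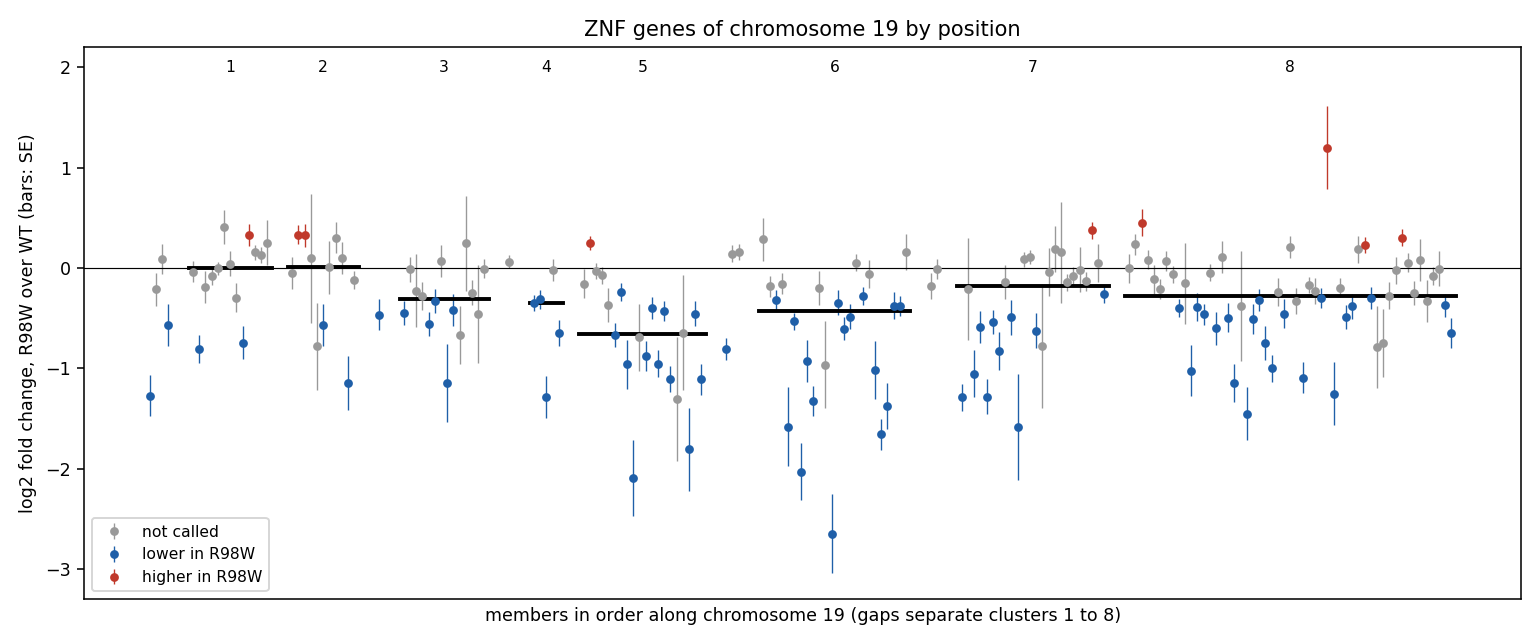
Log2 fold change of R98W over WT (points, bars are SE) for the 175 tested members in order along chromosome 19, with the 8 clusters numbered and each cluster's median drawn as a black line. The lines of clusters 1 and 2 lie at about 0, those of clusters 3 to 8 below it, lowest in cluster 5 at -0.656.

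ZNF genes of other chromosomes, chosen with the same minimum of counts, leaned the same way with smaller values: 71 of 214 were lower and 17 higher (33.2% and 7.94%), with a median of -0.149. The other protein-coding genes of chromosome 19 had 220 lower and 116 higher of 859 tested (25.6% and 13.5%) and a median of -0.0545. The difference between these sets was not tested. Members of the long arm numbered 64 lower and 6 higher of 132, with a median of -0.328, and those of the short arm 12 lower and 3 higher of 43, with a median of -0.120. Plus-strand members (45 lower of 97, median -0.301) and minus-strand members (31 lower of 78, median -0.285) leaned the same way. The strand setting of the counting is not given, and 70 members overlap another tested gene, 49 of them on the opposite strand. Members that overlap no tested gene had 51 lower and 3 higher of 105, with a median of -0.376. Members resemble one another in sequence, so reads may have been split or lost between close copies, and values of single genes carry that uncertainty.

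The size of the shift differed between clusters, without a steady order along the chromosome, and the difference was not tested. Clusters also differed in level. The median of the members' mean CPM ran from 2.28 in cluster 7 to 10.4 in cluster 4, and was 7.49 in cluster 1 and 3.49 in cluster 6. The part of level in the shift of each cluster was not tested. Cluster 6 had 16 of 24 members lower and 0 higher, with a median log2 R98W/WT ratio of -0.429 and values from -2.65 to 0.285. In cluster 5, 12 of 20 were lower and 1 was higher (median -0.656), and in cluster 4, 4 of 5 were lower and 0 higher (median -0.349). Clusters 7 and 8 had 10 of 24 and 21 of 53 lower, with 1 and 4 higher and medians of -0.174 and -0.275. In cluster 3, 5 of 14 were lower and 0 higher (median -0.305). The short-arm clusters 1 and 2 had 2 lower and 1 higher of 13, and 2 lower and 2 higher of 11, with medians of -0.0036 and 0.00683. In clusters 3, 4 and 6, 0 members were higher by edgeR also at an unadjusted p under 0.05, and 0 by DESeq2. These counts are to be read against 18.5% lower and 16.2% higher over all tested genes. In the 5 libraries other than WT replicate 1 the medians were -0.481 in cluster 6, -0.748 in cluster 5, -0.382 in cluster 4, -0.266 in cluster 7, -0.324 in cluster 8, -0.300 in cluster 3, -0.00142 in cluster 1 and -0.00619 in cluster 2. In that fit 1 member of cluster 2 was lower and 1 higher, and 3 of cluster 3 were lower. Other protein-coding genes within the cluster spans were also counted, leaving out symbols of the stems ZNF, ZFP, ZSCAN, ZIK and ZIM. Genes with other symbols, such as FIZ1 in cluster 8, were kept whether or not they encode zinc fingers. Within cluster 6 the other genes counted in this way had 5 lower and 3 higher of 20 tested and a median of -0.0883. Within cluster 8 such genes had 3 lower and 1 higher of 16 (median -0.125), and within cluster 1 they had 7 lower and 4 higher of 33 (median -0.200). Within cluster 2, whose members had a median of 0.00683, 2 of 4 such genes were lower and 0 higher (median -0.599). Within cluster 7, 0 of 3 were called (median -0.135), and the 1 such gene of cluster 5 was not called (0.106). The spans of clusters 3 and 4 held none that was tested. Over 160 pairs of neighbouring members in a cluster, 103 pairs had both log2 R98W/WT ratios below 0. Because 135 of all 175 members were below 0, many such pairs would arise in any order. The 2 values of a pair had a Pearson r of 0.241 (Spearman 0.332), as a description, since neighbours share the libraries and, often, overlaps.

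**Figure D3:**
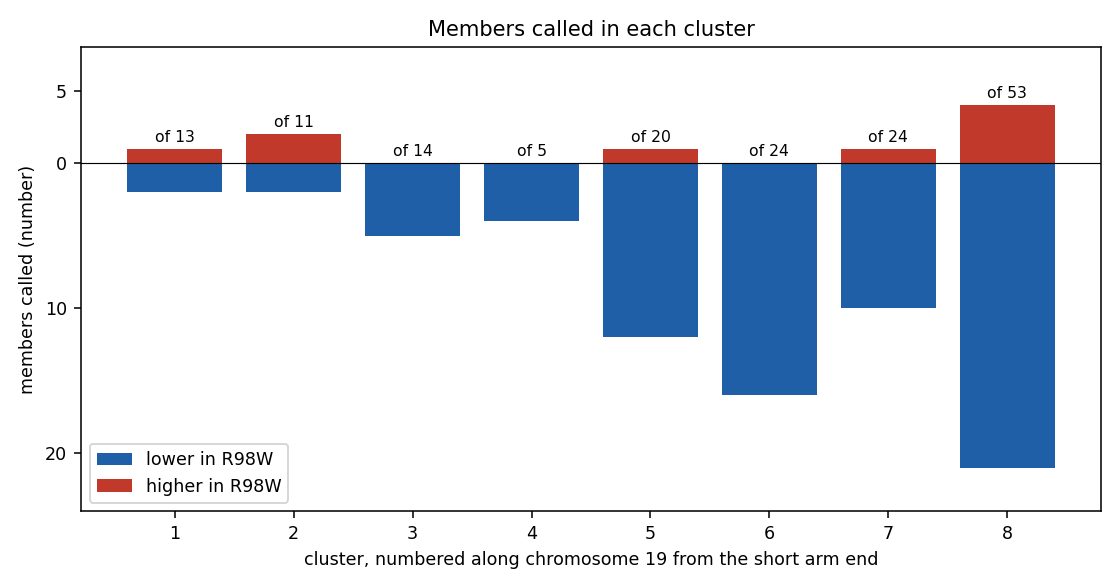
Number of members called lower (downward bars) and higher (upward bars) in R98W in each of the 8 clusters, with the number tested written above. Cluster 6 has 16 lower of 24 and 0 higher, while clusters 1 and 2 have 2 lower each.

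Cluster 6 held 4 of the 8 largest falls among members with a mean of at least 1 CPM. ZNF112, a KRAB zinc finger gene (44326555 to 44367217), stood at 4.35, 4.70 and 4.46 CPM in WT replicates 1 to 3 and at 1.54, 1.51 and 1.23 CPM in R98W replicates 1 to 3. Every R98W library lay below every WT library, and the means were 4.50 ± 0.18 and 1.43 ± 0.17 CPM (SD, n = 3), a log2 R98W/WT ratio of -1.66 (SE 0.15, edgeR adjusted p = 1.66e-07). ZNF221 (43951223 to 43967709) had 1.11, 2.66 and 1.97 CPM in WT and 0.560, 0.424 and 0.426 CPM in R98W. WT replicate 1 was the lowest of the WT libraries here but still above all R98W libraries, and the log2 R98W/WT ratio was -2.03 (SE 0.28, edgeR adjusted p = 1.82e-05), or -2.31 without that library. ZNF230 (44002948 to 44013926) had 4.09, 4.52 and 5.14 CPM in WT and 1.72, 2.02 and 1.74 CPM in R98W. The groups were apart, with a log2 R98W/WT ratio of -1.32 (SE 0.15, edgeR adjusted p = 2.01e-06). ZNF285 (44382298 to 44401608) had 1.69, 2.69 and 2.55 CPM in WT and 0.927, 1.11 and 0.644 CPM in R98W, again without overlap, and fell by 1.37 on the log2 scale (SE 0.23).

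In cluster 6, 16 of 24 members were called, so runs of called neighbours arise in any order. Their arrangement was not tested. Described after their values were seen, 3 runs of consecutive called members held 14 of its 16 called members: ZNF404, ZNF45, ZNF221, ZNF155 and ZNF230, then ZNF284, ZNF224, ZNF225 and ZNF234, then ZNF233, ZNF112, ZNF285, ZNF229 and ZNF180. ZNF45, the most abundant of the first run, had 22.8, 24.1 and 21.8 CPM in WT and 17.0, 15.9 and 14.6 CPM in R98W, a log2 R98W/WT ratio of -0.53 (SE 0.09, edgeR adjusted p = 7.93e-05). ZNF284 was at 0.783, 1.12 and 1.05 CPM in WT and 0.0509, 0.238 and 0.180 CPM in R98W, from few counts, and its fitted value of -2.65 (SE 0.39) was the lowest of all members. ZNF224, known as a KRAB repressor of the aldolase A gene, fell by 0.34 (SE 0.12), ZNF225 by 0.60 and ZNF234 by 0.48. ZNF226, next to ZNF234, did not move with them: it had 18.6, 21.6 and 18.7 CPM in WT and 20.7, 20.9 and 19.5 CPM in R98W, overlapping ranges and a log2 R98W/WT ratio of 0.05 (SE 0.09, edgeR adjusted p = 0.672). Its window, shown above, carries the word TTCTGGGAA as those of ZNF112 and ZNF230 do. Over all clusters, 15 of the 20 members with this word were lower, against 54 of the 135 without it, and 13 of the 20 lie in cluster 6. Within cluster 6, 9 of the 13 with the word were lower, as were 13 of all 20 members with a window. The word was chosen after the windows were read, so these counts are a description only. The ETS word went with 26 lower of 69 and its absence with 43 lower of 86, and the SP or KLF word with 34 lower of 95 and its absence with 35 lower of 60. These are counts over genes that share ancestry, and no test was made. The call of ZNF229 ended without the library labelled WT replicate 1 (log2 R98W/WT ratio -0.39, edgeR adjusted p = 0.054).

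**Figure D4:**
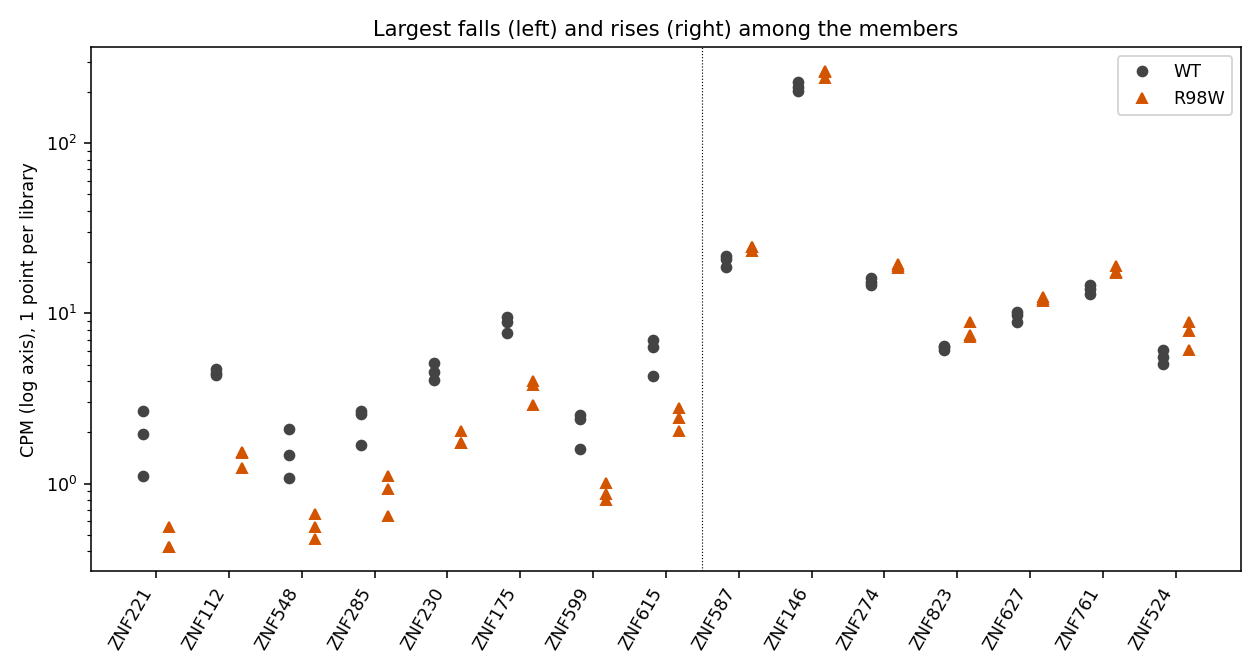
CPM on a log axis in each of the 6 libraries (circles WT, triangles R98W) for the 8 largest falls and the 7 rises among called members that averaged 1 CPM or more and whose groups did not overlap. For ZNF112 the WT libraries lie between 4.35 and 4.70 CPM and the R98W libraries between 1.23 and 1.54 CPM, while for ZNF146 all R98W libraries lie above WT by a smaller step.

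Cluster 5 had the lowest median over all 6 libraries. Without R98W replicate 1 its median was -0.458, against -0.482 in cluster 6. ZNF570 (37467585 to 37488652) was at 5.93, 6.24 and 7.19 CPM in WT and 2.86, 2.87 and 3.26 CPM in R98W. The groups were well apart, with a log2 R98W/WT ratio of -1.11 (SE 0.13, edgeR adjusted p = 3.17e-06), and the gene overlaps ZNF569 on the opposite strand, which itself fell by 0.43 (SE 0.10). Named after their values were seen, 5 consecutive called members ran from ZNF420 through ZNF383, ZNF527 and ZNF569 to ZNF570, over 37007857 to 37488652. Within that stretch ZNF527 fell by 0.95 (SE 0.13), ZNF420 by 0.88 (SE 0.15) and ZNF383 by 0.40 (SE 0.11). ZNF420 and ZNF383 overlap ZNF585A and ZNF585B on the opposite strand. A run of 4 lay before them, ZNF461, ZNF567, ZNF850 and ZNF829, which was broken without WT replicate 1, where the call of ZNF567 ended (edgeR adjusted p = 0.112). ZNF829, at 0.593, 0.548 and 0.621 CPM in WT and 0.153, 0.114 and 0.142 CPM in R98W, was weakly expressed in all libraries and had a log2 R98W/WT ratio of -2.096 (SE 0.38, edgeR adjusted p = 0.00026). At the other end of the cluster ZNF573 fell by 1.11 (SE 0.15).

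ZNF146 stood apart from its neighbours in cluster 5 by level and direction. This gene (36214602 to 36238774), also called OZF, encodes a protein made almost wholly of zinc fingers, without a KRAB domain. It was the most abundant member per length, at 56.7 CPM per kb of exon, followed by ZNF581 (8.70), ZNF480 (8.29), ZNF317 (7.86) and ZNF428 (7.63). ZNF146 had 229.5, 202 and 214 CPM in WT and 264, 260 and 241 CPM in R98W, a rise without overlap and a log2 R98W/WT ratio of 0.25 (SE 0.07, edgeR adjusted p = 0.00752). The call ended after a correction for expression level (log2 R98W/WT ratio 0.09, edgeR adjusted p = 0.282). It overlaps ZNF565 on the opposite strand, which was not called. Of the other abundant members, ZNF428 fell by 0.32 (SE 0.10), a call lost without any of 3 libraries (WT replicate 3 or R98W replicate 1 or 2, edgeR adjusted p = 0.0929, 0.0555 and 0.138), and likewise once expression level was corrected for (adjusted p = 0.0641). ZNF317 had 40.6, 39.9 and 39.0 CPM in WT and 39.7, 39.5 and 40.04 CPM in R98W, with overlapping ranges and a log2 R98W/WT ratio of -0.0036 (SE 0.07). ZNF480 and ZNF581 had 0.11 (SE 0.07) and 0.07 (SE 0.10) and were not called.

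Most called falls of cluster 7 lay from ZNF175 to ZNF611, toward the centromere, with ZNF331 alone at the other end. ZNF175 (51571298 to 51592508) had 7.66, 8.86 and 9.55 CPM in WT and 4.01, 3.78 and 2.88 CPM in R98W, with no overlap. Its means were 8.69 ± 0.96 and 3.56 ± 0.60 CPM (SD, n = 3), a log2 R98W/WT ratio of -1.29 (SE 0.14, edgeR adjusted p = 8.74e-07). ZNF615 had 4.30, 6.36 and 6.95 CPM in WT and 2.44, 2.02 and 2.77 CPM in R98W and fell by 1.28 (SE 0.17). It belongs to 5 consecutive called members from ZNF613 to ZNF432 (51927147 to 52095738), named after their values were seen, among them ZNF350 (ZBRK1), a partner of BRCA1 in repression, which fell by 0.59 (SE 0.16). ZNF432 overlaps ZNF841 on its own strand. Toward the telomere of the same cluster, ZNF761 (53431993 to 53458261) had 14.6, 13.9 and 12.9 CPM in WT and 19.02, 17.4 and 17.2 CPM in R98W. All R98W libraries were above WT, with a log2 R98W/WT ratio of 0.37 (SE 0.09, edgeR adjusted p = 0.00246), and it overlaps the pseudogene TPM3P9 on its own strand. ZNF331, an imprinted gene at the end of the cluster, fell by 0.26 (SE 0.08).

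Cluster 8 is the largest and was mixed. At a cluster distance of 0.5 Mb it splits into parts that start at 55.5 Mb and 57.2 Mb. The part at 55.5 Mb had 4 lower and 1 higher of 13 (median -0.112, median transcript GC 61.7%). The part at 57.2 Mb had 17 lower and 3 higher of 40 (median -0.309, median transcript GC 46.1%). ZNF419 (57487711 to 57496097) had 5.50, 6.51 and 7.46 CPM in WT and 3.42, 3.18 and 3.14 CPM in R98W, without overlap, a log2 R98W/WT ratio of -0.999 (SE 0.14, edgeR adjusted p = 1.33e-05). ZNF548 had 1.07, 2.095 and 1.47 CPM in WT and 0.560, 0.475 and 0.663 CPM in R98W and fell by 1.45 (SE 0.26). Named after their values were seen, ZNF548, ZNF17, ZNF749, ZNF772 and ZNF419 form a run of 5 consecutive called members. ZNF274 (58183029 to 58213562), whose protein binds the 3′ ends of zinc finger genes and recruits SETDB1 there, went the other way, from 15.3, 16.1 and 14.7 CPM in WT to 18.9, 18.5 and 19.5 CPM in R98W. It rose by 0.30 (SE 0.08, edgeR adjusted p = 0.00758), a call that ended without WT replicate 3 (log2 R98W/WT ratio 0.26, adjusted p = 0.0557). ZNF524 rose by 0.45 (SE 0.13) and overlaps FIZ1, and ZNF587 by 0.23 (SE 0.08) and overlaps ZNF814, each on the opposite strand. Both calls ended when single libraries were left out, for ZNF524 without WT replicate 2, WT replicate 3 or R98W replicate 3 (adjusted p = 0.0513, 0.0521 and 0.0966) and for ZNF587 without WT replicate 1 or 2 or R98W replicate 2 or 3 (adjusted p = 0.0513, 0.16, 0.106 and 0.0839).

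Among weakly expressed members of cluster 8 known from tumours, where their promoters are often methylated, ZNF154 and ZNF671 differed in direction. They were picked out after their values were seen. ZNF154 had 0.151, 0.183 and 0.242 CPM in WT and 0.581, 0.279 and 0.464 CPM in R98W, the only member called higher by at least 2-fold (log2 R98W/WT ratio 1.20, SE 0.42, edgeR adjusted p = 0.0307). It overlaps ZNF551 on the opposite strand, and its call ended when the library labelled WT replicate 1 was left out (log2 R98W/WT ratio 1.05, adjusted p = 0.0896). ZNF671 had 0.683, 1.19 and 0.906 CPM in WT and 0.265, 0.517 and 0.388 CPM in R98W, lower without overlap (edgeR adjusted p = 0.00407).

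The other clusters had few called members of large size. In cluster 4, ZNF599 (34758076 to 34773229) had 1.60, 2.40 and 2.54 CPM in WT and 0.805, 0.868 and 1.004 CPM in R98W, without overlap, and fell by 1.29 (SE 0.21, edgeR adjusted p = 0.000109). ZNF302 and ZNF181 beside it, at higher levels, fell by 0.35 (SE 0.08) and 0.31 (SE 0.09), ZNF792 by 0.65 (SE 0.13), and ZNF30 had -0.02 (SE 0.11). In cluster 3, ZNF714 (21082159 to 21125270) went from 9.90, 8.61 and 10.8 CPM in WT to 6.78, 7.39 and 5.76 CPM in R98W and fell by 0.56 (SE 0.12). It overlaps the pseudogene VN1R81P on its own strand. ZNF91 of the same cluster, known as a repressor of SVA retrotransposons, was near the lower limit in every library, at 0.126 to 0.241 CPM in WT and 0.134 to 0.326 CPM in R98W (log2 R98W/WT ratio 0.25, SE 0.48, edgeR adjusted p = 0.736).

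Clusters 1 and 2 held 3 of the 9 rises. ZNF627 (11559374 to 11619135) had 8.90, 10.2 and 9.74 CPM in WT and 12.5, 11.8 and 12.1 CPM in R98W, without overlap, and rose by 0.33 (SE 0.10, edgeR adjusted p = 0.0112). It overlaps ACP5 on the opposite strand. ZNF823 rose by 0.33 (SE 0.11) from 6.42, 6.10 and 6.33 CPM to 7.50, 7.22 and 8.92 CPM, a call that ended without any WT library or without R98W replicate 3 (edgeR adjusted p = 0.0504, 0.0826, 0.0911 and 0.176). ZNF121 rose by 0.33 (SE 0.11), with overlapping groups: WT replicate 1 had 33.1 CPM against 23.8 and 25.2 CPM in the other WT libraries, and R98W had 29.8, 36.3 and 37.2 CPM. Its call ended without WT replicate 2 or 3 or R98W replicate 2 or 3 (adjusted p = 0.11, 0.137, 0.0911 and 0.108), and after the correction for GC content (adjusted p = 0.0539). Against these, ZNF358 of cluster 1 fell by 0.80 (SE 0.14), from 4.62, 4.26 and 5.20 CPM to 2.53, 2.89 and 2.64 CPM. ZNF490 of cluster 2 fell by 1.15 (SE 0.27) and overlaps ZNF791 on the opposite strand.

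Outside the 8 clusters, and named after their values were seen, ZNF554 fell by 1.27 (SE 0.20) and ZNF546 by 0.81 (SE 0.11), without overlap between the groups. ZNF473, a protein of histone pre-mRNA 3′ end processing, had 16.4, 21.6 and 17.6 CPM in WT and 18.2, 19.1 and 18.02 CPM in R98W, and a log2 R98W/WT ratio of -0.0083 (SE 0.10). It overlaps VRK3 on the opposite strand.

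The direction among the members went with their expression level. Members with a mean of 1 to 4 CPM included 31 lower and 0 higher of 53 by edgeR (1 higher at an unadjusted p under 0.05, and 0 by DESeq2), where 26.4% of all tested genes at that level were lower and 8.65% higher. At 4 to 16 CPM 30 of 64 members were lower and 4 higher, against 31.1% and 13.8% of all genes there. Under 1 CPM 11 of 31 were lower and 1 higher, against 10.7% and 2.44%. At 16 CPM or more 4 of 27 were lower and 4 higher (14.8% each), against 17.0% and 30.7%. The medians of the members in these 4 ranges, from the lowest level up, were -0.773, -0.463, -0.278 and -0.0036, and those of all tested genes -0.128, -0.105, -0.0891 and 0.0747. Across the 175 members, the log2 R98W/WT ratio had a Pearson r of 0.425 with the log2 mean CPM, as a description, since both come from the same 6 libraries. Over all tested genes that r was 0.200. By transcript GC content, members differed most from other genes of like composition at the low end: under 40%, 22 of 41 members were lower and 0 higher (0 higher also at an unadjusted p under 0.05 and by DESeq2), against 13.4% and 25.8% of all tested genes, and the medians were -0.429 and 0.0988. At 50% or more 8 of 29 members were lower and 2 higher (27.6% and 6.90%), against 21.7% and 12.1%, and the medians were close, -0.0773 and -0.0693. After a correction for expression level 56 of the 76 lower members kept their call, and the members' median was -0.201, against 0.0123 over all tested genes.

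**Figure D5:**
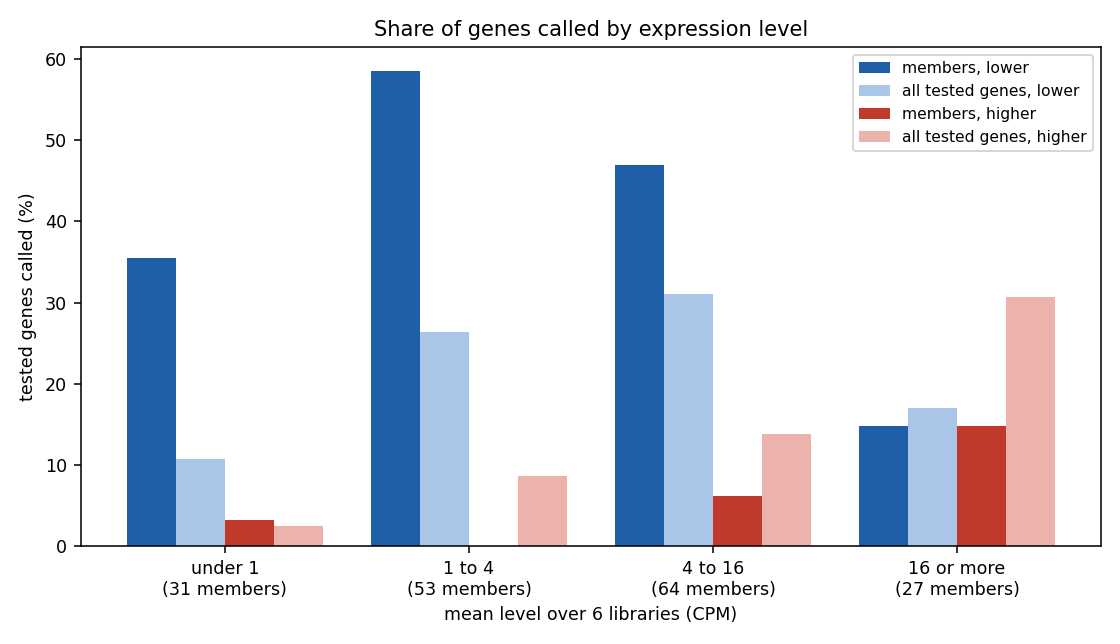
Share of tested genes called lower (blue) or higher (red) in R98W in 4 ranges of mean level, for members (dark bars) and all tested genes (light bars). The lower share of members is 58.5% at 1 to 4 CPM against 26.4%, and the 2 lower shares are 14.8% and 17.0% at 16 CPM or more.

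Genes of the machinery that KRAB zinc finger proteins recruit were called about as often as other genes. Of a list of 39 such genes, all tested, 8 were lower and 8 higher (20.5% each), against 18.5% and 16.2% of all tested genes and 23.0% and 20.3% of tested protein-coding genes, with a median log2 R98W/WT ratio of 0.00985. TRIM28, the corepressor, had 472, 414 and 417 CPM in WT and 438, 452 and 489 CPM in R98W, with overlapping groups and a log2 R98W/WT ratio of 0.08 (SE 0.07, edgeR adjusted p = 0.399). SETDB1 had -0.20 (SE 0.08, adjusted p = 0.0511) and was not called. The 4 genes of the list with the smallest p were all lower: UHRF1 and DNMT1, which maintain DNA methylation, fell by 0.68 (SE 0.09) and 0.47 (SE 0.06), the methyltransferase DNMT3A fell by 0.50 (SE 0.08), and the HP1 gene CBX1 fell by 0.34 (SE 0.07). CBX3, another HP1 gene, rose by 0.27 (SE 0.07), and ZNF274 is both in this list and a member.

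Some zinc finger genes of chromosome 19 that the symbol rule leaves out were listed by symbol. The list took ZFP, ZSCAN, ZIK or ZIM with a number, and ZNF with letters after the number. ZFP36, an RNA-binding protein of another kind, was left out, and zinc finger genes with other symbols were not listed. The listed genes had 8 lower and 0 higher of 14 tested (57.1% lower) by edgeR, with a median of -0.513. At an unadjusted p under 0.05 or by DESeq2, 0 were higher. Over all tested genes 18.5% were lower and 16.2% higher, so among 14 genes a count of 0 higher says little. ZNF585A and ZNF585B, close copies in cluster 5, fell by 1.88 (SE 0.20) and 1.76 (SE 0.19). ZNF585A went from 2.67, 3.80 and 3.27 CPM in WT to 0.652, 0.930 and 1.06 CPM in R98W, with no overlap. ZFP14, also in cluster 5, fell by 1.03 (SE 0.12) and ZNF324B of cluster 8 by 0.72 (SE 0.13).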

How the data were processed

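The authors deposited a table of raw counts, whole and not normalised, by gene, with a column for each library. CASAVA 1.8, HISAT2 2.1.0, HTSeq 0.11.3 and build hg38 are named per the submitters' processing notes, without roles. The annotation, strand setting and treatment of reads with several matches were not given in the sources used here: dropped or split reads would lower close copies. All 58721 rows matched GENCODE release 29. Genes passing filterByExpr (minimum count 10, minimum total 15) were scaled by TMM and tested with edgeR 4.0.16 (glmQLFit, glmQLFTest) in R 4.3.3, R98W against WT, over all 6 libraries without covariates. CPM use the TMM-scaled totals, and SE come from the test statistic. GC content is that of the longest transcript. The library totals, from 90007121 counts, leave genes under 1 CPM with few counts.

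The members and lists were chosen with earlier results of these data known. Named genes were the 8 largest rises (7 qualified) and falls among called members averaging 1 CPM or more with separate groups, the called member with the smallest p in each direction in each cluster, the 5 most abundant per kb, the 4 smallest p in the 2 further lists, KAT8, and 2 members on each side of the minimum. Others are said to be picked after their values were seen or are given for a known role. Alternatives were DESeq2 size factors, 2 other filters, a replicate block, leaving out each library, DESeq2 1.42.0, loess corrections (span 0.4) for GC content, exon length and level, a sum of 600 counts, members without overlap and a cluster distance of 0.5 Mb. Protein features of the members were not analysed here. The fit was tested on simulated data.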

Additional observations from a re-analysis of the deposited data

How the results depend on the processing

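The count of lower members ran from 51 to 78 over 16 alternatives and stayed within 1.5 times the reported 76 in each of them, with 72 by DESeq2, 56 after the correction for expression level and 51 among members without overlap. Of the 76, 48 were called in all 14 refits and 51 whichever single library was left out. The count of higher members, 9, was 4 to 8 when single libraries were left out (4 without WT replicate 2 or R98W replicate 3, 5 without WT replicate 3), 3 among members without overlap, and only ZNF627 and ZNF761 were called in all 14 refits. The members' median log2 fold change, -0.295, was -0.201 after the correction for expression level and -0.376 in members without overlap, which are fewer genes. Cluster medians were negative in 6 to 8 of 8 clusters, and in 7 of 9 clusters at a distance of 0.5 Mb. Over the refits the median ran from -0.0272 to 0.0657 in cluster 1 and from -0.105 to 0.135 in cluster 2. It stayed below 0 in clusters 3 to 8. The range was -0.748 to -0.458 in cluster 5, -0.482 to -0.340 in cluster 6 and -0.352 to -0.0802 in cluster 7. The fit with the replicate block gave 73 lower and 9 higher members and a median of -0.299. Deviations of same-numbered libraries from their group means had correlations of -0.0409, -0.0916 and -0.0857 for numbers 1 to 3. With so few libraries per group these values constrain one another. They cannot settle whether same-numbered libraries shared a culture or batch, which the labels do not say. ZNF317, which was not called, turned positive with DESeq2 size factors (0.0053), in the DESeq2 test (0.0073), after corrections for GC content (0.051) and exon length (0.038) and without R98W replicate 2 (0.0026), and ZNF581, also not called, turned negative without R98W replicate 1 (-0.0155, in a range of -0.0155 to 0.168 over single libraries left out; -0.0272 to 0.0026 for ZNF317). The cause of these changes was not tested.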

Other observations

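Non-coding genes of chromosome 19 with a ZNF stem, pseudogenes and antisense transcripts that the report does not use, numbered 32, of which 7 were tested. By edgeR 2 were lower and 0 higher, with 0 higher also at an unadjusted p under 0.05 and by DESeq2. Over all tested genes 18.5% were lower and 16.2% higher, and 7 genes are too few to set against these shares. ZNF529-AS1 in cluster 5 had 0.663, 1.10 and 0.916 CPM in WT and 0.387, 0.496 and 0.388 CPM in R98W, and fell by 1.07 on the log2 scale (SE 0.29, edgeR adjusted p = 0.0068). ZNF561-AS1 in cluster 1 had 1.43, 1.92 and 1.60 CPM in WT and 1.27, 0.950 and 1.02 CPM in R98W, and fell by 0.61 (SE 0.21). In both genes every R98W library lay below every WT library. Without a known strand setting, reads of an antisense gene and of its partner cannot be told apart.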
